A study of Mus musculus with 12 samples.

Results

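The genes described here encode the translation initiation factors of mouse cumulus cells, the granulosa cells that surround the oocyte. They were taken by symbol, as every gene named Eif1 to Eif6 without the eIF2 kinases and without pseudogenes. The name table held 52 such symbols, 48 of them were listed in at least 1 library, and 43 were listed in all 6 libraries and tested, out of 9022 genes tested in all. The cells came from mice of the Kunming strain and are labelled as cumulus cells and as granulosa cells of antral follicles. One group of 3 RNA libraries, called treated here, came from cells given follicle-stimulating hormone (FSH) and fetal bovine serum (FBS) for 18 hours, and the other group of 3 came from cells labelled untreated, with no culture time. The groups differ in both agents, so FSH and serum cannot be told apart. The series' design text contrasts intact cumulus-oocyte complexes, whose cumulus expanded in culture, with complexes stripped of the oocyte in a medium that triggered apoptosis. The labels do not say which libraries had an oocyte present, so its presence cannot be told apart from the treatment. The files give FPKM, fragments scaled for exon length and for the mapped fragments of the library, and the depth behind them is unknown.

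Translation initiation places a ribosome on the start codon of an mRNA. The factor eIF4F binds the cap of the mRNA and unwinds its leader, eIF2 brings the initiator methionine tRNA as a complex with GTP, and eIF3 holds the small ribosomal subunit and the mRNA together. Scanning factors then find the start codon and the large subunit joins. A pair of switches limits the process: phosphorylated eIF2 blocks its exchange factor eIF2B, and hypophosphorylated 4E-binding proteins hold eIF4E away from eIF4G until the kinase mTORC1 releases them. In cumulus cells, FSH signals through cyclic AMP and also activates the PI3K and mTORC1 pathway.

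The 60-base stretches below carry the motif found most often of those searched in the promoters of these genes, and they show its surroundings in 6 members from eIF4F and its helpers, eIF5A and eIF3. RefSeq windows from 250 bases before to 50 bases after a gene's start (build GRCm38.p6) were available for 33 of the 43 members. Where a gene had several windows, the one nearest its strongest first exon was read. The capitals mark the E-box CACGTG, a palindrome read the same on both strands, which is bound by basic helix-loop-helix proteins of the MYC, USF and TFE families. Each stretch lies before the RefSeq start and is written on the gene's own strand, and the 6 lines stand for chr11:69672580-69672639 (minus), chr16:20672646-20672705 (plus), chr5:134639473-134639532 (minus), chr11:69921428-69921487 (minus), chr7:108934320-108934379 (plus) and chr7:28981900-28981959 (minus), in this order.
Eif4a1: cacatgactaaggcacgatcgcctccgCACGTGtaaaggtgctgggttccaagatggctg
Eif4g1: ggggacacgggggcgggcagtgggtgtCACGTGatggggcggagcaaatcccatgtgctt
Eif4h: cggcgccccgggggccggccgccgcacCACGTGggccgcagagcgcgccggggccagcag
Eif5a: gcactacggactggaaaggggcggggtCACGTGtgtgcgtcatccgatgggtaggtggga
Eif3f: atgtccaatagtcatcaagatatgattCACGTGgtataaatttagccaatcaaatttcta
Eif3k: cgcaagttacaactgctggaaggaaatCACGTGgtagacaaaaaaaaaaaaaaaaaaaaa

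The E-box stood in the window of 8 of the 33 members (24.2%), against 7.15% of all 32851 windows and 10.5% of the 9123 windows of tested genes. The members' share counts 1 window per gene, chosen by its strongest first exon. The other shares count every window, 9123 for 7115 tested genes, so they are unlike measures and no test was run. The other 2 members with the E-box were Eif3a and Eif1b, and Eif4g1 held it at 2 places. Fitted log2 differences of the 8 genes ran from -0.22 (Eif3f) through -0.14 (Eif3k), 0.04 (Eif1b) and 0.18 (Eif3a) to 0.67 (Eif4h), 0.78 (Eif4a1), 0.80 (Eif4g1) and 1.44 (Eif5a), so the letters were found in genes of either direction; Eif1b and Eif3a had negative values after the rescalings given below. The cyclic AMP response element TGACGTCA was in none of the 33 windows (1.79% of all windows), and the ATF4-type motif TGATGNAAN, searched on both strands, was in 1 (3.95% of all). A C followed by 4 pyrimidines at the annotated start, the beginning of a terminal oligopyrimidine tract, was found for Eif3f and Eif2s3x (2.51% of all windows). A match is a description of letters, not of a bound site.

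Across all genes, 214 of 9022 (2.37%) passed limma at an adjusted p under 0.05, 152 higher (1.68%) and 62 lower (0.687%) after FSH and FBS. The first 2 libraries of each group were near repeats, with a median difference per gene of 8.82% (FSH and FBS) and 10.6% (untreated) against 33.2% to 46.5% for pairs with library 3, so they were averaged and each group had n = 2. Treated library 3 stood apart in the summed FPKM of the initiation factors: the 43 genes summed to 5699 FPKM there, against 3802 and 3808 FPKM in libraries 1 and 2 and 3187 to 3489 FPKM in the untreated libraries. Abundant genes weigh most in such a sum. The median of the 43 genes was 55.0 FPKM in treated library 3, against 57.0 and 54.4 FPKM in treated libraries 1 and 2. In the untreated libraries this median was 39.8 to 50.7 FPKM. Granulosa markers were present in every library, with Inha, the inhibin alpha subunit, at 276 to 502 FPKM and Foxl2 not listed. Of 11 such markers 8 to 10 were listed, and they summed to 411 to 529 FPKM with treatment and 486 to 598 FPKM without. Wt1 had 0.419, 0.145 and 0.0063 FPKM in the treated libraries and 8.04, 9.03 and 3.73 FPKM in the untreated ones, Cyp19a1 was listed only in treated libraries 1 and 2 (2.44 and 2.81 FPKM), and Kitl was missing from treated library 3. Summed oocyte markers (12 genes, 1 to 8 of them listed) were 0.26, 0.157 and 11.7 FPKM in the 3 treated libraries and 13.6, 14.1 and 18.2 FPKM in the untreated ones. Of the defining ones Zp1, Zp2, Bmp15 and Mos were listed in no library, Zp3 only in untreated libraries and Gdf9 in all 6. Gdf9 alone had 8.77 FPKM in treated library 3, most of the sum there, against 4.16, 5.10 and 6.06 FPKM in the untreated libraries. Summed theca and stroma markers (6 genes, 1 to 4 listed, mostly Acta2, which encodes smooth muscle actin) were 14.3 to 17.5 FPKM with treatment and 61.3 to 75.2 FPKM without, and summed leukocyte markers 2.96 to 7.19 and 8.97 to 12.6 FPKM. Summed endothelial markers (5 genes, 0 to 2 listed) went the other way, with 3.37, 2.63 and 2.58 FPKM with treatment and 0, 0.438 and 0 FPKM without. Cdh5 was listed in each treated library (2.06, 2.63 and 2.58 FPKM) and in no untreated one, and Pecam1 in treated library 1 and untreated library 2. Their part in the results below was not tested, and in bulk RNA fewer cells of a type cannot be told apart from less RNA per cell.

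None of the 43 initiation factor genes passed the adjusted threshold in limma, in either direction. At an unadjusted p under 0.05, 7 were higher and 0 lower, against 12.1% of all genes higher and 4.31% lower. All 3 treated libraries lay above all 3 untreated ones for 16 of the 43 (29.4% of all genes) and below them for 4 (9.54% of all genes). The fitted difference was positive for 34 and negative for 9, but for 26 and 17 with the libraries scaled to equal sums or by the median of ratios and for 24 and 19 after quantile normalization. These 3 rescalings moved the median of all genes from 0.24 in log2 to -0.024, 0.0037 and 0.0060, and 26 of the 43 members lay above the unscaled one. Of the members, 26 were higher with treatment in both replicate numbers (51.1% of all genes) and 4 lower in both (20.7%). Their median log2 difference was 0.48, against 0.24 over all genes tested. Without treated library 3 the median of the members was 0.21 and that of all genes 0.26. Same-numbered libraries deviated together, and with the replicate number as a block limma called 4 members higher (Eif4ebp1, Eif1ad, Eif4e and Eif2b3) and 1 lower (Eif4e3), where it called 11.5% of all genes higher and 4.51% lower. At n = 2 per group the block leaves fewer residual degrees of freedom than the 2 of the fit without it. Its p-values, here and below, thus rest largely on the variance that limma borrows across genes. With the 6 libraries kept apart and no block limma called 5 members higher (Eif4ebp1, Eif1ad, Eif1a, Eif2s2 and Eif3c) and 0 lower, beside 10.8% and 3.88% of all genes.

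**Figure D1:**
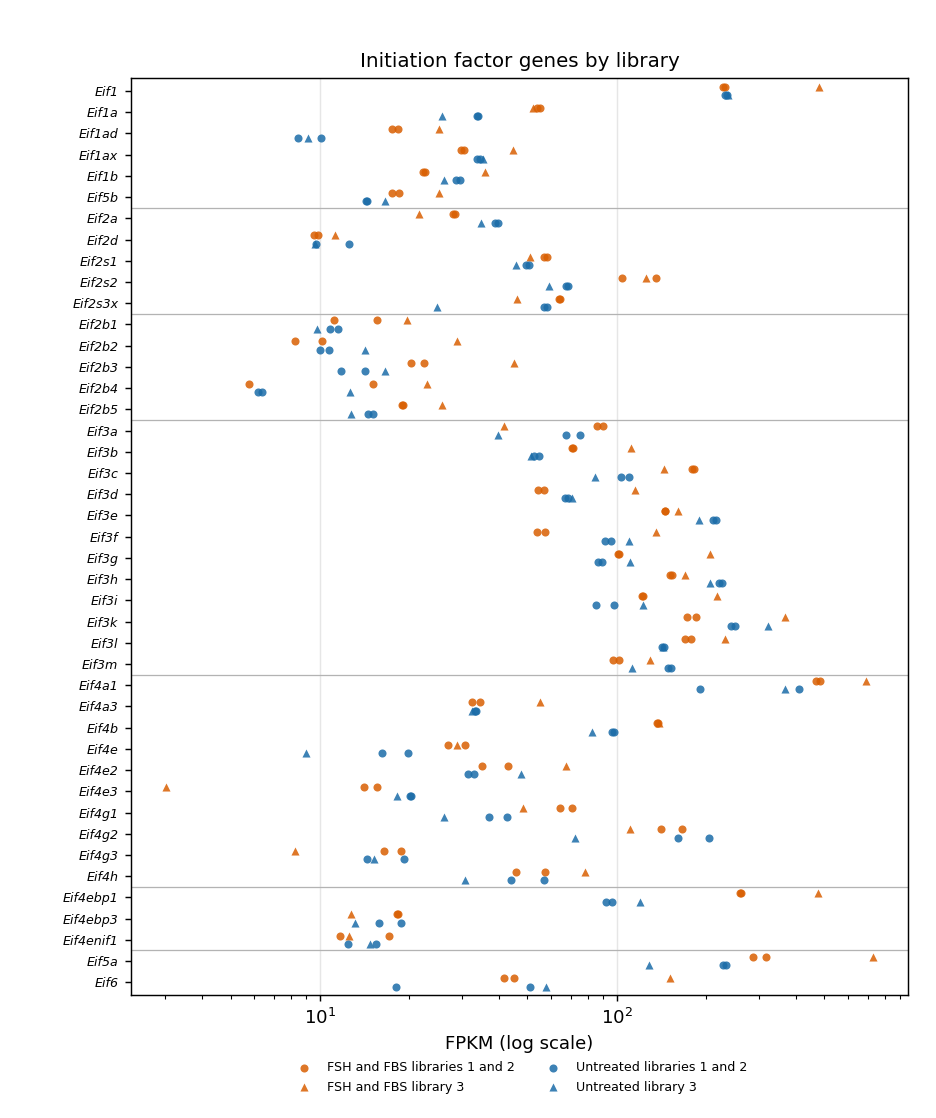
FPKM (horizontal, log scale) of the 43 tested initiation factor genes in each of the 6 libraries, grouped by complex from scanning factors at the top to eIF5A and eIF6 at the bottom; circles are libraries 1 and 2, triangles library 3, orange FSH and FBS, blue untreated. Levels run from about 10.4 FPKM for Eif2d to 435 FPKM for Eif4a1 as means over the 6 libraries, and the orange triangle is the highest point for many genes.

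The factors differed widely in level. As means over the 6 libraries, Eif4a1, the RNA helicase of eIF4F, was highest with 435 FPKM (190 to 690.5 FPKM), followed by Eif5a with 320.1 FPKM and Eif1 with 274 FPKM. Their ranges overlapped, so the order of these 3 is not fixed by the data. The 12 tested eIF3 subunits lay between 66.6 FPKM (Eif3a) and 257 FPKM (Eif3k). The 5 subunits of eIF2B were all near the bottom, between 11.5 FPKM (Eif2b4) and 21.7 FPKM (Eif2b3), well below the 3 subunits of its substrate eIF2, which had 52.0 FPKM (Eif2s1), 93.2 FPKM (Eif2s2) and 52.4 FPKM (Eif2s3x). Eif4e, the cap-binding subunit, had 21.9 FPKM and Eif4g1, its scaffold, 48.2 FPKM.

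The 4E-binding proteins held the member with the largest difference. Eif4ebp1, the repressor that competes with eIF4G for eIF4E, had 262, 261 and 476 FPKM in the 3 treated libraries and 92.2, 96.4 and 120.1 FPKM in the untreated libraries. All 3 treated libraries lay above all 3 untreated ones, and library 3 was the highest of each group. Its log2 fold change on the log2(FPKM + 1) scale was 1.72 (SE 0.46, 95% interval 0.66 to 2.78), with a limma adjusted p of 0.115, and of 0.0117 with the replicate block. The fold change was 1.29 without treated library 3, and 1.41, 1.45 and 1.30 under equal sums, the median of ratios and quantile normalization. The treated mean was 368 ± 152 FPKM and the untreated mean 107 ± 18.2 FPKM (SD, n = 2 each). Eif4ebp2, a second 4E-binding protein, was listed only in untreated libraries 1 and 2, with 14.1 and 22.3 FPKM. For Eif4ebp3 nearly all of the listed signal came from first exons of the neighbouring gene Ankhd1 (12.6 to 17.9 FPKM), so its value does not describe the binding protein. Eif4enif1, which carries eIF4E into the nucleus and into processing bodies, had 17.0, 11.7 and 12.6 against 15.5, 12.4 and 14.7 FPKM, and the groups overlapped. One first exon of it, in or near Sfi1 by position, contributed 10.1 and 2.86 FPKM in treated libraries 1 and 2.

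**Figure D2:**
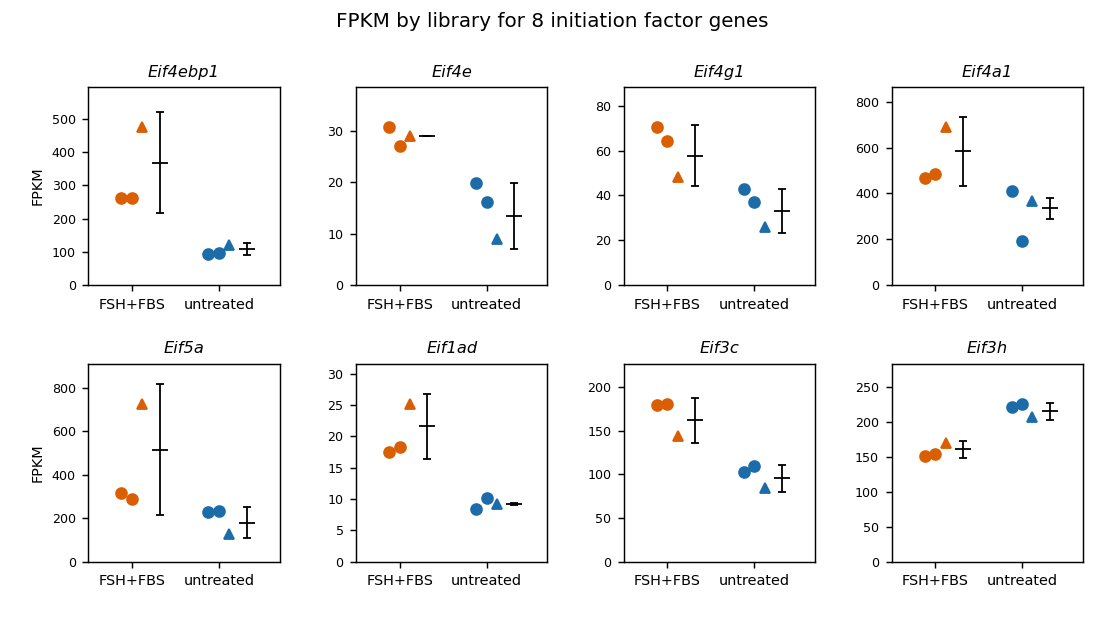
FPKM by library for 8 initiation factor genes, FSH and FBS in orange and untreated in blue, circles for libraries 1 and 2 and triangles for library 3; the black mark is the mean with its SD over n = 2 samples, libraries 1 and 2 averaged. For Eif4ebp1, Eif4e, Eif4g1, Eif4a1, Eif5a, Eif1ad and Eif3c every treated library lies above every untreated one, and for Eif3h every treated library lies below.

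Among the 10 tested genes of eIF4F and its helpers, the fitted difference was positive for 8 and negative for 2 (median log2 difference 0.50); Eif4g2 turned negative under each of the 3 rescalings, and Eif4a3 and Eif4e2 after quantile normalization. Eif4e had 30.7, 27.0 and 28.9 FPKM after FSH and FBS against 19.8, 16.2 and 8.95 FPKM in untreated cells. The groups did not overlap, and the untreated library 3 was the lowest. Its log2 fold change was 1.12 (SE 0.41, 95% interval 0.19 to 2.06), with a limma adjusted p of 0.233, and of 0.0279 with the block. Without untreated library 3 it was 0.65 (limma adjusted p 0.804). Eif4g1 had 70.6, 64.4 and 48.1 against 42.7, 37.1 and 26.1 FPKM, a log2 fold change of 0.80 (SE 0.39, limma adjusted p 0.351), and of 0.50 without untreated library 3. Library 3 was the lowest of both groups, and the groups did not overlap. Eif4a1 had 468, 483 and 690.5 against 412, 190 and 368 FPKM, and its log2 fold change was 0.78 (95% interval -0.33 to 1.90), and 0.52 without treated library 3. Untreated library 2, where this gene was lowest, is the library whose assembled loci carried other numbers than in the remaining tables. Eif4b, which stimulates the helicase, had 138, 136 and 139 against 97.9, 96.4 and 82.8 FPKM, also without overlap. Eif4h, its shorter relative, had 57.1, 45.8 and 78.3 against 44.1, 57.0 and 30.7 FPKM, and the groups overlapped; its log2 difference was 0.026 for libraries 1 and 2 and 1.32 for library 3.

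The relatives of these subunits had smaller or negative fitted differences. Eif4g2, a relative of eIF4G that does not bind eIF4E, had 141, 165 and 111 against 204, 161 and 72.3 FPKM, which overlapped. Within each library the ratio of Eif4g1 to Eif4g2 was 0.501, 0.390 and 0.435 with treatment against 0.210, 0.230 and 0.361 without, without overlap and free of any scaling between libraries. The pair was chosen with results of these data known, and how often ratios of other gene pairs separate was not measured. The ratio is therefore a description only and no test was run on it. Eif4e2, the cap-binding repressor 4EHP, and Eif4a3, the helicase of the exon junction complex, had log2 differences of 0.38 and 0.37. Eif4g3 had a log2 difference of -0.37, with 8.27 FPKM in treated library 3 against 14.4 to 19.3 FPKM in the other libraries. Eif4e3, an atypical cap-binding protein, had the lowest log2 fold change of all members, -1.33 (SE 0.60, limma adjusted p 0.32, and 0.0248 with the block), but -0.35 without treated library 3. The value with the block joined unequal log2 differences, -0.42 for libraries 1 and 2 and -2.25 for library 3. Eif4e3 had 15.5, 14.1 and 3.04 FPKM after FSH and FBS against 20.3, 20.1 and 18.1 FPKM. In every library except treated library 3, most of that signal came from 6 first exons inside the neighbouring gene Foxp1. Read only inside its own RefSeq span, an alternative chosen after the values were seen, its log2 fold change was -1.08. Eif4e1b, an oocyte relative of eIF4E, was listed only in untreated libraries, with 0.947, 0.788 and 1.63 FPKM. It is itself on the list of oocyte markers, and the other 11 summed to 0.26, 0.157 and 11.7 FPKM with treatment and 12.6, 13.3 and 16.5 FPKM without. In treated library 3 most of that sum was Gdf9 alone (8.77 FPKM), and Eif4e1b was not listed there.

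The ratio of Eif4ebp1 to Eif4e, repressor over target, was 8.51, 9.64 and 16.5 with treatment against 4.65, 5.96 and 13.4 without. It was higher after treatment in each pair of same-numbered libraries, but library 3 was high in both groups and the groups overlapped. These ratios are of RNA and say nothing of the phosphorylation that controls binding.

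**Figure D3:**
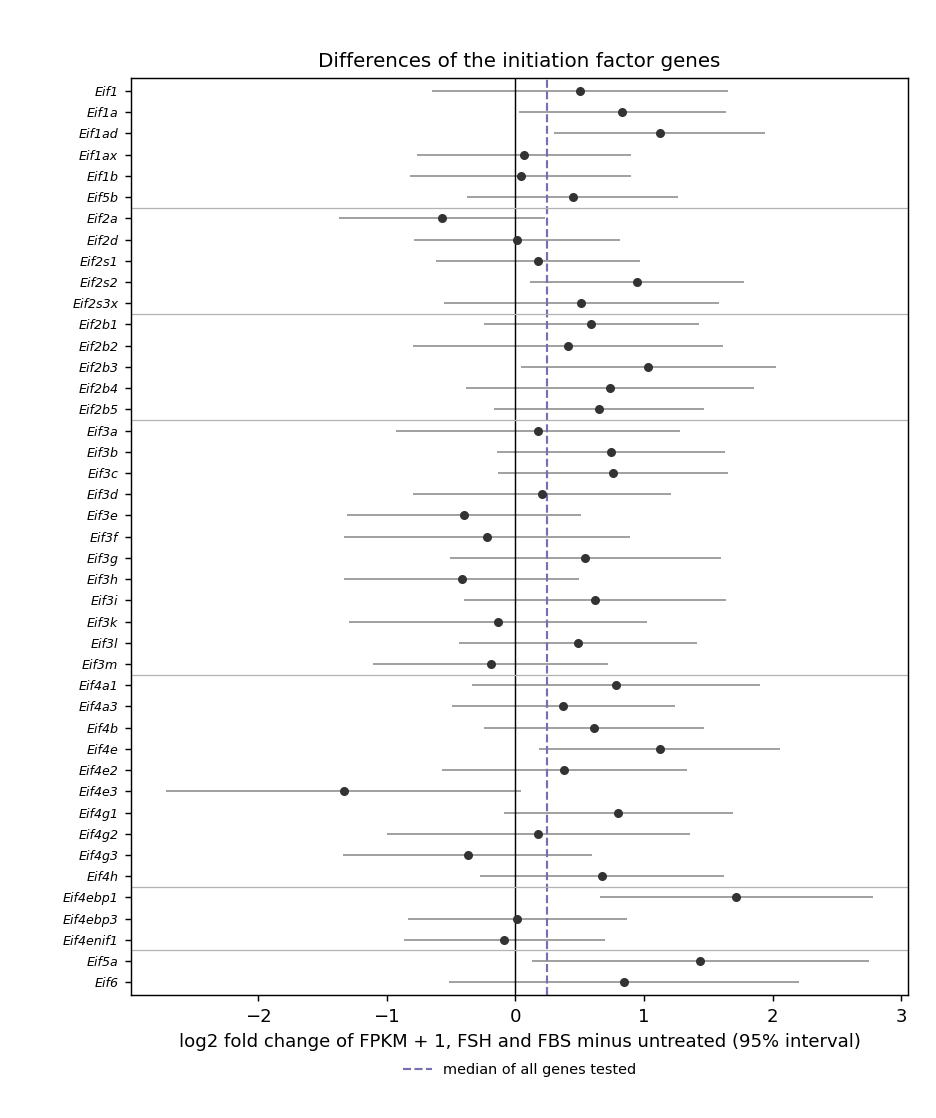
Log2 fold change of FPKM + 1 (horizontal, FSH and FBS minus untreated) with the 95% interval from limma for the 43 tested initiation factor genes, ordered by complex as in the plot of levels; the dashed line is the median of all genes tested, 0.24. The 7 intervals that lie wholly above 0 belong to Eif1a, Eif1ad, Eif2s2, Eif2b3, Eif4e, Eif4ebp1 and Eif5a, and none lies wholly below 0.

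The 3 subunits of eIF2 had positive fitted differences of unequal size before rescaling. Eif2s2, the beta subunit, had 104, 135 and 126 FPKM after FSH and FBS against 67.3, 68.5 and 58.9 FPKM in untreated cells, a log2 fold change of 0.94 (SE 0.36, limma adjusted p 0.255). Eif2s1, the alpha subunit that carries the regulatory phosphorylation site, had 58.1, 56.9 and 51.1 against 50.7, 49.4 and 45.8 FPKM. The groups did not overlap for either subunit, but the difference of Eif2s1 was 0.17 in log2 (95% interval -0.62 to 0.97) and turned negative under each of the 3 rescalings. Eif2s3x, the gamma subunit, had 63.7, 64.6 and 46.3 against 58.2, 56.8 and 24.8 FPKM, with library 3 low in both groups. Eif2a, an alternative carrier of initiator tRNA that is not a subunit of eIF2, was lower in all 3 treated libraries, with 28.5, 28.0 and 21.6 against 39.0, 39.7 and 34.9 FPKM (log2 fold change -0.57, limma adjusted p 0.463). Eif2d, another such carrier, differed by 0.01 in log2 (95% interval -0.79 to 0.81) and turned negative under the same rescalings.

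All 5 subunits of eIF2B, the guanine nucleotide exchange factor of eIF2, had fitted differences above the median of all genes (median log2 difference 0.65). Without treated library 3 the median of the 5 was 0.33, and Eif2b2, with -0.36, lay below the median of all genes at that setting, 0.26. Eif2b3, the gamma subunit, had 22.4, 20.3 and 45.1 FPKM against 14.1, 11.8 and 16.6 FPKM, a log2 fold change of 1.03 (SE 0.43, limma adjusted p 0.286, and 0.0369 with the block). Without treated library 3 the fold change of Eif2b3 was 0.51 (limma adjusted p 0.705). Eif2b5, the catalytic epsilon subunit, had 18.8, 19.0 and 25.8 against 14.5, 15.1 and 12.7 FPKM (log2 fold change 0.65). Neither gene's groups overlapped. For Eif2b1 and Eif2b2 they did, and Eif2b2 was at 10.1 and 8.26 FPKM in treated libraries 1 and 2 and at 28.8 FPKM in library 3, against 9.97 to 14.2 FPKM in untreated cells. Eif2b4, whose groups overlapped too, took part of its signal from a first exon on its own strand that began outside its RefSeq span. By position alone this exon lay in or near the neighbouring gene Snx17. It had 11.4, 3.82 and 14.99 FPKM in the 3 treated libraries and 1.65, 1.37 and 12.2 FPKM in the untreated ones, so this part was largest in treated library 3. The value of Eif2b4 was the same when only events overlapping its own span were read.

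The 12 tested subunits of eIF3 split in direction, 7 positive and 5 negative, with Eif3a and Eif3d negative as well under each rescaling (median log2 difference 0.19, and -0.14 without treated library 3). Eif3c, a subunit of the core that touches the small ribosomal subunit, had 179.5 and 181 FPKM in treated libraries 1 and 2 and 144 FPKM in library 3, against 103, 109.9 and 84.3 FPKM (log2 fold change 0.76, SE 0.39, limma adjusted p 0.383). Eif3b, the RNA-binding scaffold of the module with g and i, had 70.5, 70.9 and 112 against 54.6, 52.7 and 51.5 FPKM. Eif3l had 169.5 to 231 FPKM after FSH and FBS against 142 to 144 FPKM. For each of these 3 genes the groups did not overlap. Eif3e had 145, 146 and 160.1 FPKM after FSH and FBS against 216, 211 and 189 FPKM in untreated cells. Eif3h had 151, 154 and 169.5 against 222, 226 and 207 FPKM (log2 fold change -0.42, 95% interval -1.33 to 0.50). Both were lower in every treated library. Eif3k, the most abundant subunit, had 172, 185 and 368 against 243, 250.3 and 322 FPKM, so it was lower in libraries 1 and 2 and higher in library 3. Eif3f and Eif3m had the same arrangement, with log2 differences of -0.74 and -0.59 for libraries 1 and 2 and 0.30 and 0.20 for library 3.

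Subunits a, b, c, g and i, which in the known assembly form the part of eIF3 related to the minimal complex of yeast, were set against e, f, h, k and m, the 5 subunits with negative fitted differences. The grouping was chosen by that sign after the values were seen and left out Eif3d and Eif3l, which had positive ones, so it favours groups that do not overlap and is given with no test. The ratio of their geometric means was 0.925, 0.899 and 0.703 in the treated libraries against 0.442, 0.470 and 0.432 in the untreated libraries. Being formed within a library, it does not depend on scaling between libraries. The numerator alone was 107, 106 and 125 FPKM against 77.5, 82.5 and 74.8 FPKM, and the denominator 116, 118 and 177 FPKM against 175, 175 and 173 FPKM. With Eif3d and Eif3l added to the denominator the ratio was 0.969, 0.947 and 0.720 against 0.521, 0.555 and 0.505. The single ratio of Eif3c to Eif3e was 1.24, 1.24 and 0.899 against 0.477, 0.521 and 0.445. As Eif3c was higher and Eif3e lower in every treated library, this ratio could not overlap and is no further evidence.

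**Figure D4:**
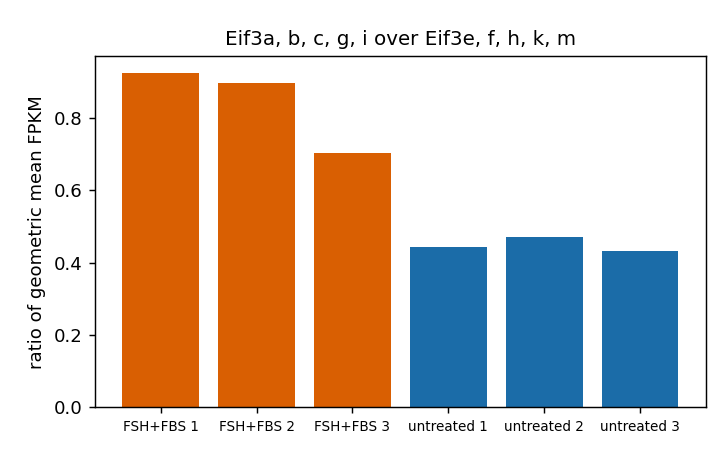
Ratio of the geometric mean FPKM of Eif3a, b, c, g and i to that of Eif3e, f, h, k and m in each library (vertical, no unit), 1 bar per library, FSH and FBS in orange and untreated in blue. The treated libraries lie between 0.703 and 0.925 and the untreated between 0.432 and 0.470; the subunits were grouped after their values were seen, and Eif3d and Eif3l are not included.

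The 6 tested genes of scanning, start codon choice and subunit joining had positive fitted differences (median log2 difference 0.47, but 0.088 without treated library 3, and 0.17, 0.20 and 0.13 under equal sums, the median of ratios and quantile normalization), of which those of Eif1ax and Eif1b turned negative under each rescaling. Eif1ad, which is named for its eIF1A-like domain, had 17.5, 18.3 and 25.2 FPKM after FSH and FBS against 8.46, 10.1 and 9.12 FPKM. The treated libraries were all above the untreated ones, with a log2 fold change of 1.12 (SE 0.36, limma adjusted p 0.174, and 0.0176 with the block). Eif1a, a near-identical copy of the X-linked Eif1ax whose reads the counting could share, had 55.2, 53.9 and 52.0 against 33.7, 34.0 and 25.7 FPKM. Eif1ax itself had 29.8, 30.5 and 44.5 against 34.7, 33.9 and 35.5 FPKM, which overlapped. Eif1, the gatekeeper of start codon selection, had 227, 231 and 481 against 232, 235 and 236 FPKM. Libraries 1 and 2 of the treated group were thus level with the untreated cells, and library 3 alone was high. Eif1b, a close paralog of Eif1, had 22.6, 22.2 and 35.9 against 28.7, 29.5 and 26.1 FPKM and a fitted log2 difference of 0.04. Eif5b, the GTPase of subunit joining, had 17.5, 18.4 and 25.3 against 14.4, 14.2 and 16.6 FPKM.

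First-exon use was a further readout. Of 53 first exons in the 16 tested members with at least 2 that took 5% or more of the gene's first-exon FPKM in some library, 5 in 4 genes (both of Eif1 and 1 each of Eif2b1, Eif4a1 and Eif4e3) had shares that did not overlap between the groups, against 8.97% of 11727 such first exons of all tested genes. The members' share was thus near that of all tested genes. The 2 shares of Eif1 mirror each other, so they are 1 observation. The Eif2b1 exon took 98.75% or more in every library except untreated library 2, where another first exon was listed. The Eif4a1 exon took at most 0.0269% outside untreated library 3, and the Eif4e3 exon lay inside Foxp1. Eif1, whose 2 first exons lie inside its own RefSeq span, was singled out after the values were seen, and no test was run on it. On the plus strand of chromosome 11, in the coordinates of the deposited files, the main one began at 100319885 and the other, further downstream, at 100320518. The downstream first exon took 2.64%, 2.07% and 2.16% of the first-exon FPKM of Eif1 in the treated libraries and 13.1%, 12.9% and 10.9% in the untreated libraries. In FPKM it had 5.99, 4.79 and 10.1 against 30.3, 30.2 and 25.7. The FPKM did not overlap either, and treated library 3, which was high for the gene as a whole, was not high for this share.

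**Figure D5:**
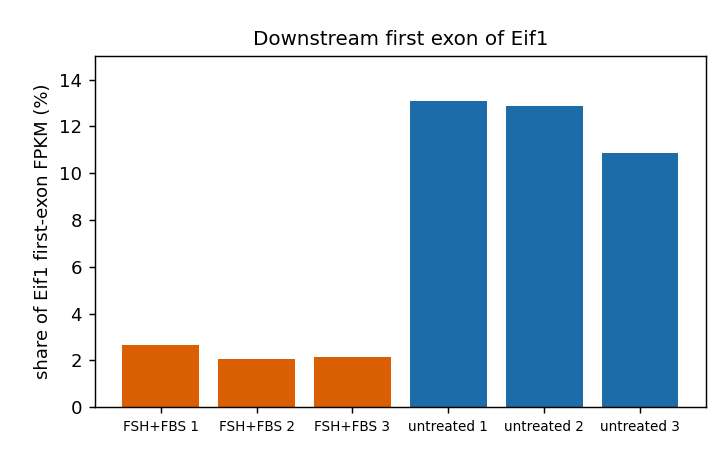
Share of the first-exon FPKM of Eif1 that came from the downstream first exon (vertical, percent), 1 bar per library, FSH and FBS in orange and untreated in blue. The treated libraries lie between 2.07% and 2.64% and the untreated libraries between 10.9% and 13.1%.

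Among the late-acting factors, Eif5a had 317, 287 and 727 FPKM after FSH and FBS against 228, 234 and 128 FPKM in untreated cells. eIF5A, first described as an initiation factor, acts mainly in elongation and carries the amino acid hypusine. Its log2 fold change was 1.44 (SE 0.57, 95% interval 0.13 to 2.75, limma adjusted p 0.269), made up of 0.39 for libraries 1 and 2 and 2.49 for library 3. The groups did not overlap, but the size rested on library 3, and without treated library 3 the fitted value was 0.81. Dhps, the first enzyme of hypusine synthesis, had 37.3, 37.6 and 72.7 against 17.9, 25.2 and 18.8 FPKM. Eif6, which keeps the large subunit from joining too early, had 45.1, 41.8 and 151 against 50.9, 18.0 and 57.8 FPKM, and the groups overlapped. Eif5a2, the rarer paralog of Eif5a, was listed in 5 libraries, with 0.790 and 0.954 FPKM in treated libraries 1 and 2 and 2.65, 3.07 and 1.22 FPKM in the untreated ones.

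Several members were not tested because the tables did not list them in every library under their own name. Eif5, the GTPase-activating protein of eIF2, was listed once, with 61.5 FPKM in untreated library 2. In the other 5 libraries its locus was listed under Snora28, a small nucleolar RNA gene that lies within it, with 48.7, 51.9 and 48.0 FPKM after FSH and FBS and 62.9 and 27.3 FPKM in untreated libraries 1 and 3. Eif4a2, the second helicase of eIF4F, was listed in none, and first exons at its locus appeared under the small RNA gene Gm24616 with 118, 112 and 81.2 against 188, 160 and 104 FPKM. The groups overlapped at both loci. Eif3j1, a loosely bound eIF3 subunit, was listed only in untreated library 2 (8.79 FPKM), and a first exon at its locus stood under Spg11 with 12.4, 10.5 and 6.15 FPKM after FSH and FBS and 8.40 and 8.53 FPKM in untreated libraries 1 and 3. Its copy Eif3j2, Eif2s3y and Eif2c5, an Argonaute-type symbol, were listed in none. The values under other names describe the loci and not transcripts assigned to the factors.

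Splicing of the members, a readout that did not choose them, was measured for few events. The 7 listed introns of 3 members (Eif2b2, Eif4a1 and Eif5b) had a mean retained share of 31.0% ± 1.67 with treatment and 31.9% ± 0.72 without (SD, n = 2 each, exact two-sided permutation p = 0.667, where the smallest possible is 0.333). An Eif2b2 intron and an Eif4a1 intron had 99.36% to 100% in every library, and the other Eif4a1 introns 0.66% or less. The other Eif2b2 intron, which overlaps the first, had 9.14% to 21.1%. The Eif5b introns had 0% to 6.67%, with the same share as each other in every library. Over 1901 introns of all genes the shares were 9.62% and 16.8% (exact permutation p = 0.333). The members' mean reflects which introns were listed, so its level and difference cannot be compared with those over all genes. Inclusion of the 18 cassette exons of members overlapped between the groups for each exon, where 9.15% of 3474 cassette exons of all tested genes did not overlap.

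The genes around the initiation factors were read from 5 lists, and none of their genes passed the adjusted threshold in limma without the block. The list on control of eIF2 phosphorylation also holds genes that act after it, such as Atf4. Of its 10 tested genes, 4 were higher at an unadjusted p under 0.05 (12.1% of all genes), and with the block 3 were called higher (11.5% of all genes) and 0 lower (4.51%): Atf4, Ppp1r15a and Ppp1r15b. Atf4, a transcription factor whose mRNA is translated preferentially when eIF2 is phosphorylated, had 374, 371 and 441 FPKM after FSH and FBS against 130.1, 139 and 135 FPKM, without overlap (log2 fold change 1.58, limma adjusted p 0.107, and 0.0201 with the block). Ppp1r15a and Ppp1r15b target a phosphatase to eIF2, and their log2 differences were 1.27 and 0.99. Ppp1r15a had 9.79, 6.84 and 25.4 FPKM after FSH and FBS against 6.74, 6.93 and 4.41 FPKM, so the groups overlapped and treated library 3 alone was high. Ppp1r15b had 27.2, 26.9 and 23.2 against 15.1, 15.6 and 9.50 FPKM, without overlap. Eif2ak4, the kinase GCN2, had the lowest difference of the list, -0.72, with overlapping groups.

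Of 16 tested genes of mTORC1 and MNK signalling to eIF4F, 4 were higher at an unadjusted p under 0.05, and 4 were called higher with the block, beside the same 12.1% and 11.5% of all genes. The genes called with the block were Sesn2, Ddit4 and Deptor, which restrain mTORC1, and Larp1, which binds the leaders of mRNAs for the translation machinery. Deptor had 22.4, 21.3 and 7.99 FPKM after FSH and FBS against 7.48, 8.68 and 3.65 FPKM, and its groups overlapped (limma adjusted p 0.343 without the block). Those of Sesn2, Ddit4 and Larp1 did not overlap. Sesn2 had 24.5, 23.2 and 17.2 FPKM after FSH and FBS against 7.92, 6.91 and 6.46 FPKM (log2 fold change 1.43, limma adjusted p 0.0951, and 0.00329 with the block). Pdcd4, an inhibitor of the eIF4A helicase, was lower in every treated library, with 19.9, 21.2 and 19.6 against 28.9, 30.4 and 29.3 FPKM, but its log2 fold change of -0.53 did not pass the threshold with or without the block (limma adjusted p 0.471 and 0.252).

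Of 9 tested poly(A)-binding and recycling genes, 0 were at an unadjusted p under 0.05 (16.5% of all genes in either direction) and 0 were called with the block (16.0%), with log2 differences from -0.29 (Paip2) to 0.89 (Ddx3x). Among 10 tested genes of the list on elongation and termination 3 were higher at an unadjusted p under 0.05 (12.1% of all genes), and the lowest was Eef2 with -0.15. The block called Dhps (log2 fold change 1.33), the enzyme of hypusine synthesis, and Eef1e1 (1.12) higher, where it called 11.5% of all genes higher. Eef1a1, Eef1d, Eef1g, Eef2, Etf1 and Gspt2 were not called with the block. Among 9 mitochondrial translation factors 2 were higher at an unadjusted p under 0.05, beside the same 12.1% of all genes, and the lowest was Mtrf1l with -0.0011. The block called Gfm1 (0.89, limma adjusted p 0.0469) and Tsfm (1.13, limma adjusted p 0.0261) higher, beside the same 11.5%. The medians of these 3 lists were 0.49, 0.56 and 0.49, those of the lists on eIF2 phosphorylation and mTORC1 0.57 and 0.62, and that of the initiation factors themselves 0.48.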

How the data were processed

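The 6 RNA libraries were analysed from tables of exon events; no file of the 6 small-RNA samples was analysed here. The authors deposited FPKM per event, per the file headers; HISAT2 2.0.1 is named in the submitters' processing notes, and the build is not given in the sources used here. For each gene the first-exon FPKM and the last-exon FPKM were summed, and the larger sum was its value. IDs were named for 13281 of 13318 genes, and the strongest exon overlapped the RefSeq GRCm38.p6 span for 95.86% of 12768 genes. Events with no gene ID (0.699% to 0.999%) were left out. Genes that every library listed, at 1 FPKM or more on average, were fitted with limma 3.58.1 (R 4.3.3, intensity trend) on log2(FPKM + 1), which understates changes of low genes; p-values are two-sided and Benjamini-Hochberg adjusted over 9022 genes, at a threshold of 0.05, and the procedure was tested on simulated data. Libraries 1 and 2 were averaged; whether the samples are separate cultures is not stated, so p-values measure the spread between these samples. Same-numbered libraries were taken as pairs because their deviations correlated (r = 0.319, 0.31 and 0.508 over 9022 genes, and 0.512 after averaging libraries 1 and 2). As libraries 1 and 2 were near repeats, these values are not separate checks. The labels give no pairing beyond the replicate number, so the block was chosen from the data it was used on. Members, lists and tests were chosen with earlier results of these data known. In each complex the genes named were those with the highest and lowest difference and the highest level, with a fixed list of core factors; further genes were named after their values were seen. Alternatives covered scaling, pseudocount, filters, exon sums, the block and leaving out each library.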

Additional observations from a re-analysis of the deposited data

How the results depend on the processing

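No initiation factor gene was called in either direction when any 1 library was left out, under the 3 rescalings or with another pseudocount, filter or exon sum. Keeping all 6 libraries as separate replicates called 973 genes higher and 350 lower over all genes and 5 members higher. The replicate block called 1040 and 407 genes, with 4 members higher and 1 lower, and changed no other call among the members; the block with all 6 libraries apart called 1516 and 584 genes and 8 members higher. Over all genes, equal sums called 59 higher, the median of ratios 49 higher and 41 lower, quantile normalization 94 higher, and first exons alone 42 higher and 21 lower. The cause of these shifts was not tested. The median log2 difference of the members was 0.18 with equal sums, 0.21 with the median of ratios and 0.096 after quantile normalization. Under these 3 scalings, in this order, Eif1b had -0.26, -0.22 and -0.34, Eif2s1 -0.13, -0.095 and -0.23, and Eif4g2 -0.13, -0.094 and -0.24; with 6 libraries apart, with or without the block, Eif1b had -0.093.

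Leaving out 1 library at a time gave 60 to 272 genes called higher and 41 to 112 lower, lowest without untreated library 3 and highest without treated library 3, and a median of the members of 0.21 to 0.50. The log2 difference ran from -0.035 to 0.51 for Eif1, -0.29 to 0.053 for Eif1b, -0.36 to 0.62 for Eif2b2, -0.66 to 0.055 for Eif3k, -0.22 to 0.029 for Eif4enif1, -0.48 to 0.41 for Eif4g2, -0.040 to 1.30 for Eif6 and -1.41 to -0.35 for Eif4e3, and it was 0.51 or more for Eif2b3. The retained share of members' introns differed by -0.87 percentage points, by 0.16 over introns with both forms listed, and by -1.26 to 0.31 with 1 library left out. Reading events inside a gene's own span was an alternative added after the values were seen. FPKM without counts gives no depth, so no counting error can be given for low genes.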
